A study of Mus musculus with 18 samples.

Results

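Regulatory T (Treg) cells of the mouse lung were set against Treg cells of the spleen, using 6 of the 18 libraries of a series in which the same cell type was taken from 6 sites: lung, spleen, liver, lymph node, blood and bone marrow. The 6 libraries were chosen by their tissue label alone, 3 from lung and 3 from spleen. The series addresses how Treg cells of the blood relate to those of tissues. Both groups were CD4+Foxp3+ cells, sorted directly without culture from wild-type mice that had received no treatment, and poly(A) RNA was sequenced with a strand-marking kit. The labels do not give the sorting gates, how cells were freed from either organ, how old or of which sex the mice were, the number of mice per library or whether replicate libraries came from separate sorts, and they name no batch. The p-values therefore measure only the spread between these libraries, which may be technical.

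Treg cells are CD4 T cells that depend on the transcription factor Foxp3 and restrain immune responses through receptors such as CTLA-4 and through cytokines. In non-lymphoid tissue, Treg cells are known for the interleukin-33 receptor ST2 (Il1rl1), the transcription factors Gata3, Batf and Rora, and the epithelial growth factor amphiregulin (Areg). Cyclic AMP (cAMP), which many hormones, neuropeptides, prostaglandins and adenosine raise in T cells, activates protein kinase A. The kinase phosphorylates CREB, which then switches on target genes through a DNA element named the cAMP response element (CRE), and phosphodiesterases break cAMP down again.

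The deposited unit was TPM (transcript abundance per length of transcript, scaled to a fixed total), a share of each library's RNA. The smallest steps between low TPM values showed that 1 read on a transcript of 1 kb was worth 0.227 to 0.242 TPM in lung and 0.151 to 0.166 TPM in spleen (a ratio of 1.48). Reads recovered in this way on 12062 single-transcript genes summed to 395985 to 443807 in a lung library and 426886 to 469403 in a spleen library, so the libraries were closer in depth by this second measure. Between 15219 and 15606 genes were above 0 TPM in a lung library and between 16685 and 16756 in a spleen library. Among well-expressed genes (100 TPM or more on average), the coefficient of variation over the 3 replicates had a median of 8.0% in lung (1434 genes) and 5.24% in spleen (1393 genes). Replicate libraries differed from each other by 7.16 to 8.56 times the variance of counting noise in lung and by 4.98 to 6.15 times in spleen, so no library was a copy of another. Mitochondrially encoded RNA made up 8.09% to 8.92% of the lung libraries and 5.70% to 5.79% of the spleen libraries. Ribosomal protein mRNA made up 21.4% to 21.9% and 27.9% to 28.2%.

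The label was checked on the genes that define the cell. Foxp3 was at 222, 237 and 232 TPM in lung and 132, 149 and 138 TPM in spleen. It was higher in every lung library, with a log2 difference of 0.72 (SE 0.08, adjusted p = 3.78e-04, limma). Cd3e, a chain of the T cell receptor complex, was at 409, 429 and 458 TPM in lung and 533, 520.4 and 539.9 TPM in spleen, and Cd4 was at 247, 324 and 276 TPM in lung and 367, 321 and 372 TPM in spleen. The 10 T cell and Treg genes used for this check summed to 4145 to 4423 TPM in lung and 5324 to 5499 TPM in spleen. On TPM, 6 of these 10 genes were lower and 2 higher in lung at an adjusted p of 0.05 (limma). Of all genes tested, 18.6% were lower and 15.6% higher. The median log2 difference of the 10 genes was -0.36. All of them were detected in all 6 libraries.

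Transcripts of other cell types were also present, and they differed between the organs. Of 18 markers of alveolar and tissue macrophages, 10 were higher and 5 lower in lung (against 15.6% and 18.6% of all genes tested, the shares against which every count below is to be read). Their summed level was 1702 to 1866 TPM in lung against 222 to 246 TPM in spleen. The 5 lower ones were C1qa, C1qb, C1qc, Vcam1 and Spic, which mark other macrophages than those of the airspaces. The call of Spic was lost when any 1 library was left out (adjusted p = 0.055 to 0.141, limma), which left 4 lower. Chil3, a protein of alveolar macrophages, was at 498, 504 and 441 TPM in lung and 15.3, 10.9 and 25.1 TPM in spleen, and Ear1 was at 46.5, 57.4 and 49.01 TPM in lung and listed at 0 in spleen. Of 18 monocyte and neutrophil markers, 9 were higher and 0 lower (2 lower at an unadjusted p of 0.05 or without lung replicate 3), with sums of 1850.3 to 1962 TPM against 756 to 941 TPM. Of 16 lung epithelium markers, 10 were tested, 5 were higher and 2 lower, with sums of 504 to 565 TPM against 158 to 184 TPM, and 7 of the 16 were at 0 in all spleen libraries. The club cell gene Scgb1a1 was at 264, 197 and 215 TPM in lung and 1.33, 0 and 0 TPM in spleen. Of 14 B cell markers, 13 were lower, with sums of 353 to 413 TPM in lung and 2083 to 2131 TPM in spleen. Of 9 tested plasma cell markers, 5 were lower and 2, Sdc1 and Xbp1, were higher (1 higher when any library but lung replicate 3 was left out). Their sum, most of it Igkc, was 337 to 349.5 TPM in lung and 2106 to 2253 TPM in spleen. Jchain, which joins antibody units, was at 0.19, 0.20 and 3.11 TPM in lung and 123, 136 and 131 TPM in spleen. Of 12 tested dendritic cell markers, 4 were lower, the MHC class II genes H2-Aa, H2-Ab1 and H2-Eb1 and the invariant chain Cd74, which B cells also express. Itgax and Zbtb46 were higher, with log2 differences of 2.46 and 1.84, and 6 did not pass. The list summed to 1096 to 1212 TPM in lung and 2353 to 2388 TPM in spleen, most of it from those 4 genes.

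**Figure D1:**
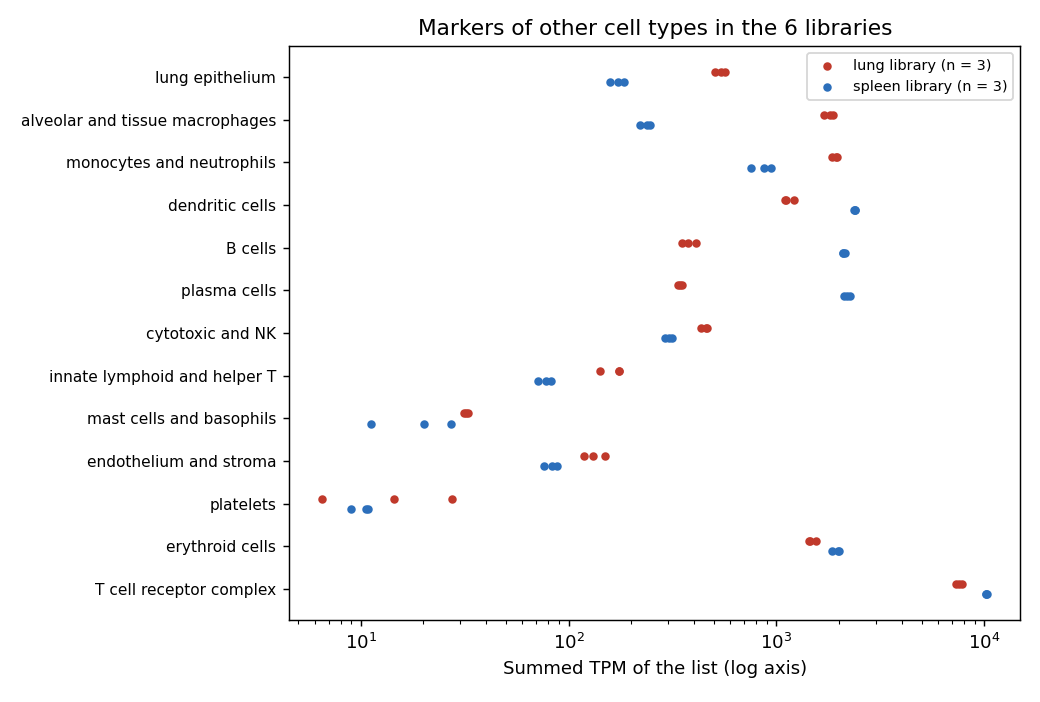
Summed TPM of each marker list (log axis) in the 3 lung (red) and 3 spleen (blue) libraries, with the T cell receptor complex genes in the bottom row. Macrophage, monocyte and epithelium markers lay higher in all lung libraries, while B cell, plasma cell and dendritic cell markers lay higher in all spleen libraries.

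The remaining lists were smaller or moved less. Markers of cytotoxic and natural killer cells summed to 434 to 464 TPM in lung and 290 to 315 TPM in spleen, of innate lymphoid and helper T cells to 141 to 175 and 71.5 to 82.8, and of endothelium and stroma to 119 to 149 and 76.1 to 88.5. Erythroid markers summed to 1429.7 to 1549.8 TPM in lung and 1859 to 2003 in spleen, mast cell and basophil markers to 31.4 to 32.7 and 11.2 to 27.3, and platelet markers to 6.52 to 27.4 and 8.95 to 10.8. The part that any of these cells had in the results was not tested. In bulk libraries such as these, fewer cells of a type and less RNA per cell cannot be told apart.

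Lung and spleen Treg libraries differed in a large share of the transcriptome. Of 14611 genes averaging 1 TPM or more in lung or spleen, 4990 (34.2%) passed an adjusted p of 0.05 (limma, Benjamini-Hochberg), of which 2278 (15.6% of those tested) were higher and 2712 (18.6%) lower in lung. With a log2 difference of at least 1 as well, 1323 genes (9.05%) were higher and 1490 (10.2%) lower. In 3191 genes (21.8%) all lung libraries lay above all spleen libraries and in 3995 (27.3%) below. The median log2 difference over all genes tested was -0.12, and the median standard error 0.27. The split between higher and lower calls depended on the scale. When each library was scaled to 20 genes of the T cell receptor complex instead of to its total, the median over all genes became 0.38 and 81.8% of the calls were higher, against 45.7% with TPM as deposited. Removing mitochondrial, ribosomal protein and haemoglobin genes before rescaling gave 40.5%. Spearman's rank correlations were 0.928 to 0.932 between lung libraries, 0.958 to 0.960 between spleen libraries and 0.857 to 0.861 across the organs.

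**Figure D2:**
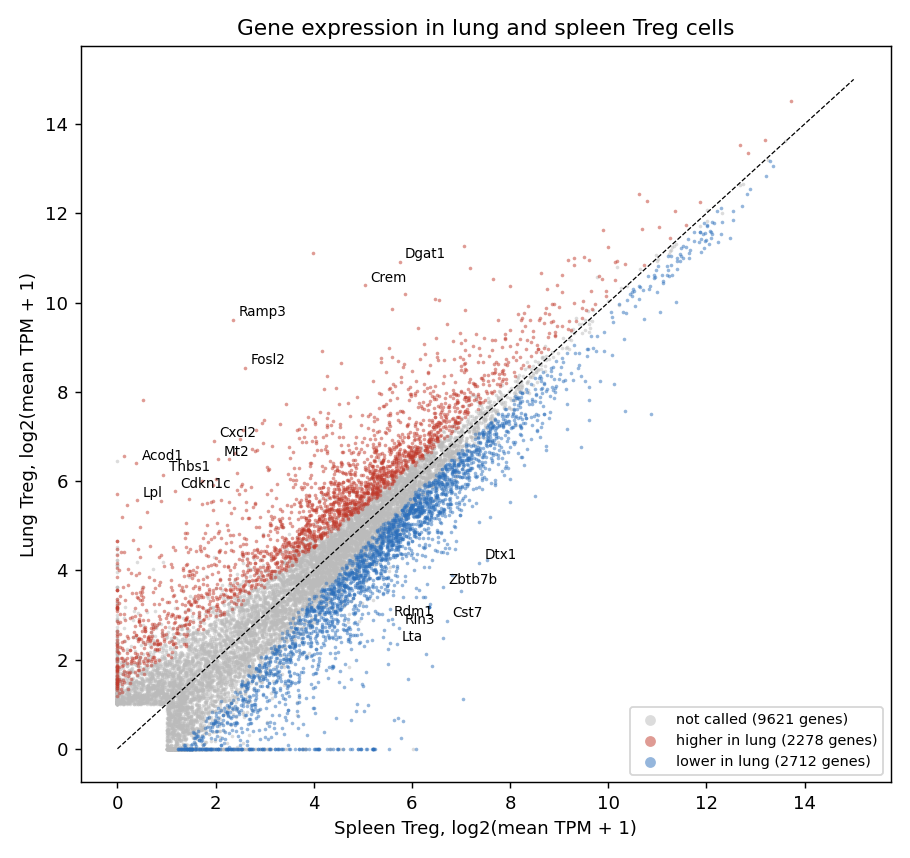
Mean expression of the 14611 tested genes in spleen (horizontal) and lung (vertical), as log2(mean TPM + 1), with the 2278 genes called higher in lung in red, the 2712 called lower in blue and the dashed line at equal levels. Points far above the line include Ramp3, Crem, Dgat1 and Fosl2.

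The largest rise of all tested genes was that of the epithelium marker Scgb1a1 (7.40), and Calca (6.38), Ear1 (5.69) and Plet1 (5.26), also on the lists of other cells, were among the largest. Genes were ranked without those markers, predicted genes, and antigen receptor, immunoglobulin and small RNA genes, and first in this ranking was Ramp3, which encodes an accessory protein that pairs with the calcitonin-receptor-like receptor and routes adrenomedullin signals into cAMP production. Ramp3 (ENSMUSG00000041046, chr11:6658521-6677475, plus strand, mm10) was at 794, 769.7 and 784 TPM in lung and 2.98, 3.91 and 5.39 TPM in spleen. The lung libraries were close to one another, and the lowest lay far above the highest spleen library. The log2 difference was 7.29 (SE 0.17, adjusted p = 4.09e-07, limma), or 191 times the spleen mean in TPM. Among the 6 sites, the mean was 93.0 TPM in liver, 10.4 TPM in bone marrow, 2.76 TPM in lymph node and 2.62 TPM in blood.

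Crem, which encodes activators and repressors that bind the CRE, among them the inducible repressor ICER, was at 1300.5, 1365 and 1345 TPM in lung and 26.2, 37.02 and 32.2 TPM in spleen. The spread within each organ was small beside the gap between them, and the log2 difference was 5.36 (SE 0.12, adjusted p = 3.44e-07). The liver, at a mean of 503 TPM, was the next highest site. The predicted gene Gm6225, which overlaps Crem on the opposite strand, was at means of 6.16 TPM in lung and 1.04 TPM in spleen. Dgat1, the enzyme of the last step of triglyceride synthesis (chr15:76502015-76511953, minus strand), was at 1876, 1928 and 1987 TPM in lung and 52.8, 55.2 and 50.4 TPM in spleen. This was the most abundant of the 12 genes in TPM, with a log2 difference of 5.17 (SE 0.06, adjusted p = 1.82e-08). Its divergent neighbour Hsf1, which starts 102 bases away, did not pass the test, at means of 49.6 TPM in lung and 67.5 TPM in spleen. Fosl2 (chr5:32135801-32157842, plus strand), a member of the AP-1 family of transcription factors, was at 351, 391 and 369 TPM in lung and 7.07, 4.48 and 3.66 TPM in spleen, and its log2 difference was 5.97 (SE 0.20, adjusted p = 2.10e-06). Its groups did not overlap, and the liver mean, 127 TPM, was the next highest of the 6 sites.

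The other 8 of the 12 ranked genes with the largest rise were lower in abundance, and several are known mainly from cells other than T cells. Acod1, the enzyme of activated macrophages that makes itaconate, was at 84.2, 84.3 and 81.00 TPM in lung and 0.21, 0.65 and 0.06 TPM in spleen. Lpl, lipoprotein lipase, had a mean of 46.3 ± 3.32 TPM (SD, n = 3) in lung and 0.21, 0.04 and 0.72 TPM in the spleen libraries, and Ctsk, a lysosomal protease, was at 34.5, 39.4 and 41.1 TPM in lung and 0.39, 0.12 and 1.06 TPM in spleen. These 3 genes were near 0 in every spleen library and between 34.5 and 84.3 TPM in every lung library. The neutrophil-attracting chemokines Cxcl1 and Cxcl2, neighbours on chromosome 5, had log2 differences of 5.09 (SE 0.27) and 5.01 (SE 0.30), with Cxcl2 at 139, 113 and 104 TPM in lung and 1.32, 3.51 and 3.86 TPM in spleen. Thbs1 (thrombospondin 1) was at 68.7, 71.3 and 68.03 TPM in lung and 1.06, 0.77 and 0.91 TPM in spleen, but its highest mean among the 6 sites was in bone marrow, at 118 TPM. Mt2, a metal-binding metallothionein, had the largest standard error of the 12 log2 differences (0.66), with levels from 63.5 to 108 TPM in lung and from 0 to 5.30 TPM in spleen. Cdkn1c, an inhibitor of cyclin-dependent kinases, was at 60.3, 45.7 and 55.1 TPM in lung and 0.26, 1.43 and 2.03 TPM in spleen. For 11 of the 12 genes the lung had the highest mean of the 6 sites, a rank favoured by choosing them for their rise over spleen. The macrophage and monocyte markers above were higher in the same lung libraries, and their part in the rise of Acod1, Lpl, Ctsk, Cxcl1, Cxcl2 and Thbs1 was not tested.

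**Figure D3:**
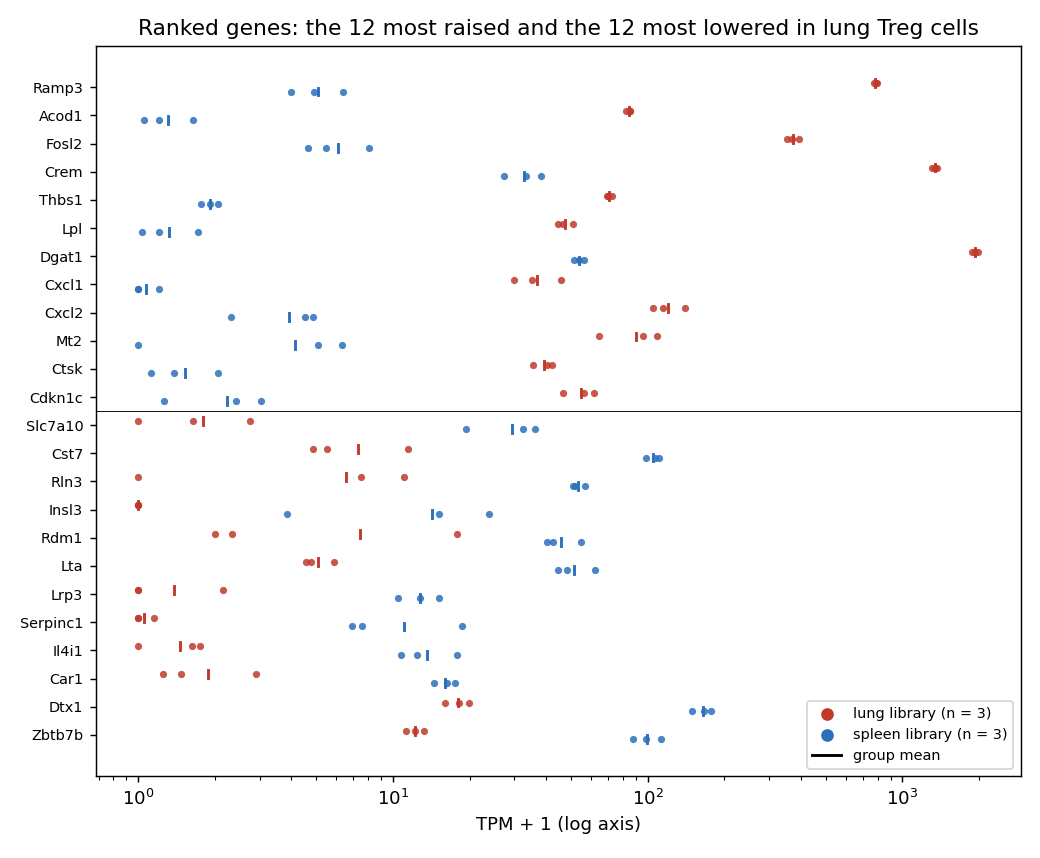
TPM + 1 (log axis) in each lung (red) and spleen (blue) library for the 12 ranked genes with the largest rise (top) and the 12 with the largest fall (bottom) in lung, with bars at the group means. No gene's lung and spleen points overlap, by the rule that chose them, and Slc7a10, Rln3, Insl3, Lrp3, Serpinc1 and Il4i1 reach 0 TPM in lung.

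The cAMP pathway was followed through its steps. Of 34 genes listed, 33 were tested, 19 were higher (against 15.6% of all genes) and 4 lower (against 18.6%), and the median log2 difference was 1.13 where that of all genes was -0.12. With 1 library left out, 17 to 19 were higher and 3 to 4 lower. The list was chosen with earlier results of these data known and holds Ramp3, Crem and Fosl2 of the ranked genes. Its counts are therefore a description and not an independent test. Among receptors and their partners, Adora2a, the adenosine receptor that raises cAMP in T cells, was at 216, 184 and 146 TPM in lung and 41.8, 57.7 and 37.5 TPM in spleen. It was higher in all lung libraries, with a log2 difference of 1.98. Neither the receptor that pairs with Ramp3 nor the other RAMP genes were called higher. Calcrl, the receptor that RAMP proteins accompany, was at 9.75, 12.4 and 16.5 TPM in lung and 9.76, 9.80 and 6.44 TPM in spleen (adjusted p = 0.18), so its groups overlapped. Ramp1, which makes Calcrl a receptor for the neuropeptide CGRP, was lower, at 13.1, 13.6 and 12.8 TPM in lung and 40.6, 36.5 and 40.7 TPM in spleen, a log2 difference of -1.51 (SE 0.14). Ramp2, the third RAMP, was at 0, 0.87 and 4.58 TPM in lung and listed at 0 in spleen. Among the prostaglandin and peptide receptors, Vipr1 was lower, at a mean of 1.88 TPM in lung and 4.78 TPM in spleen, while Ptger2, Ptger4 and Ptgir did not pass. The call of Vipr1 was lost when any library but lung replicate 3 was left out (adjusted p = 0.054 to 0.109, limma). A CGRP gene, Calca, was itself detected in lung, at 61.9, 93.5 and 124 TPM in lung and 0.28, 0 and 0 TPM in spleen. It belonged to the list of innate lymphoid and helper T cell markers, 2 of whose 12 tested members were higher and 1 lower. With 1 library left out, these counts ranged from 1 to 3 higher and from 1 to 2 lower, and the part of other cells in the level of Calca was not tested.

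Of the enzymes that set cAMP, all 5 phosphodiesterases listed were higher. Pde4d was at 132, 121 and 123 TPM in lung and 15.1, 15.1 and 15.7 TPM in spleen, a log2 difference of 2.95 (SE 0.11, adjusted p = 2.75e-06), and Pde3b was at 32.4, 24.9 and 24.3 TPM in lung and 5.38, 4.98 and 3.32 TPM in spleen. Pde4a, Pde4b and Pde7a had log2 differences of 1.77, 1.72 and 0.83. The call of Pde7a was lost without spleen replicate 1 (adjusted p = 0.057, limma) or spleen replicate 3 (0.059). The cyclase Adcy7, which makes cAMP, was lower, at 35.2, 45.1 and 40.2 TPM in lung and 85.8, 86.4 and 88.3 TPM in spleen, with a log2 difference of -1.10. The catalytic kinase subunit Prkaca was lower (-0.81) and the regulatory subunit Prkar1a higher (0.39). Transcripts of CREB itself (Creb1), at means of 41.8 TPM in lung and 43.1 TPM in spleen, and of its coactivators Crtc1, Crtc2 and Crtc3 did not pass, while the coactivator Crebbp was higher by 0.82. That call of Crebbp was lost without lung replicate 2 or 3 or spleen replicate 1 or 2 (adjusted p = 0.057 to 0.097, limma).

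All 8 inducible target genes of the list were higher in lung. The orphan nuclear receptor Nr4a3 was at 141, 130.2 and 156 TPM in lung and 12.2, 12.5 and 11.49 TPM in spleen, a log2 difference of 3.45 (SE 0.12, adjusted p = 2.27e-06). Nr4a2 was at 47.6, 53.7 and 51.6 TPM in lung and 4.71, 4.0 and 4.89 TPM in spleen, and Nr4a1, the most abundant of the 3, at 731, 793 and 832 TPM in lung and 206, 221 and 218 TPM in spleen. Sik1, a kinase that cAMP induces and that acts on the CRTC proteins, was at 129.8, 142 and 155 TPM in lung and 12.3, 15.5 and 11.8 TPM in spleen. The clock gene Per1 and the phosphatase Dusp1 had log2 differences of 2.41 and 1.79. Areg was at 139, 175 and 158 TPM in lung and 5.71, 6.59 and 7.93 TPM in spleen, so the groups lay far apart, and its log2 difference was 4.35 (SE 0.16, adjusted p = 2.80e-06). Several of these targets also answer to the antigen receptor and to other signals.

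**Figure D4:**
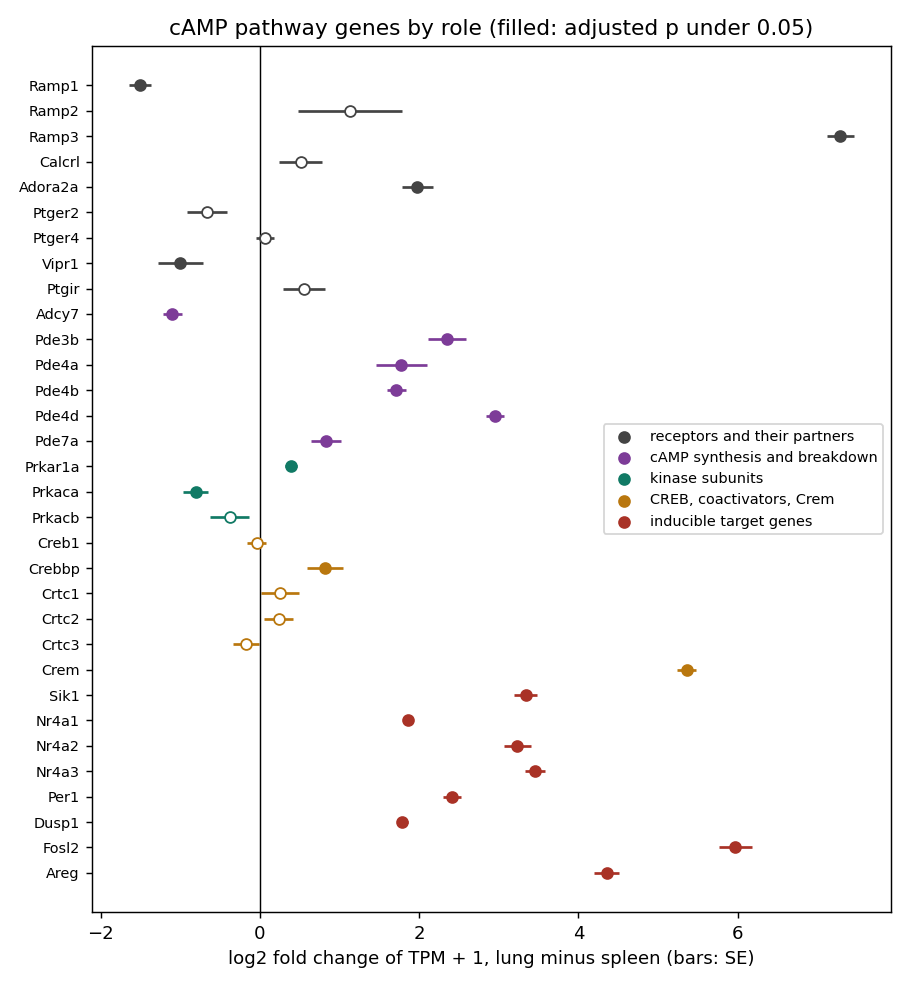
Log2 difference of TPM + 1 (lung minus spleen, horizontal axis, bars: SE) for tested cAMP pathway genes, in blocks by role and filled where the adjusted p was under 0.05. Ramp3 lies furthest to the right at 7.29, all inducible targets lie to the right, and Ramp1 is the lowest at -1.51.

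The CRE was searched in promoters, taken as 250 bases before to 50 bases after the RefSeq start (GRCm38.p6, the assembly of mm10). A gene counted when any promoter sequence given for it held the element. The palindrome TGACGTCA, read on both strands, was present in 93 of 1704 genes called higher in lung that had a promoter sequence (5.46%), in 39 of 1976 called lower (1.97%), in 356 of 9904 tested (3.59%) and in 549 of all 27025 genes with a promoter sequence (2.03%). The AP-1 element TGANTCA, which cannot match inside the CRE, was in 8.10% of the promoters of genes called higher, 6.38% of those called lower, 6.15% of those tested and 8.97% of all promoters. Of the 19 cAMP genes called higher, 13 had a promoter sequence, and the CRE was found in Areg, Dusp1 and Prkar1a. The 7 of the 12 ranked genes with the largest rise that had a promoter sequence held none. The windows below, of 60 bases on the gene's strand and all before the start site, show the element in capitals in 6 genes called higher, which were chosen for holding it after their values were seen.
Areg chr5:91139512-91139571 plus strand: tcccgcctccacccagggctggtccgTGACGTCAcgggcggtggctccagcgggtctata
Errfi1 chr4:150854993-150855052 plus strand: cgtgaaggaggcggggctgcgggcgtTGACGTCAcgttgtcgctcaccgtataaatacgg
Plk2 chr13:110394956-110395015 plus strand: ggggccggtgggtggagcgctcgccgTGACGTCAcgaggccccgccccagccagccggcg
Ppp1r15a chr7:45526269-45526328 minus strand: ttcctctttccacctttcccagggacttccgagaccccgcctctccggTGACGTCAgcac
Maff chr15:79347460-79347519 plus strand: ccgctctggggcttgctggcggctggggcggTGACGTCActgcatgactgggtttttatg
Dusp1 chr17:26508582-26508641 minus strand: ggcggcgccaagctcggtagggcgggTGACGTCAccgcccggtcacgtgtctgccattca
The element ended 53 bases before the start site in Areg, 43 in Errfi1, 54 in Plk2, 4 in Ppp1r15a, 21 in Maff and 135 in Dusp1. In TPM, Errfi1, an inhibitor of the EGF receptor, was at 41.1, 40.4 and 50.6 TPM in lung and 3.18, 1.71 and 1.98 TPM in spleen, and Plk2, a stress-induced kinase, was at 45.3, 47.7 and 47.8 TPM in lung and 5.95, 1.67 and 2.31 TPM in spleen. Ppp1r15a, which ends the block on translation in the integrated stress response, was at 409, 385 and 433 TPM in lung and 42.8, 47.5 and 63.9 TPM in spleen. The small Maf factor Maff had a log2 difference of 2.97 (SE 0.44). A match of letters is a description of these windows and not a measurement of binding.

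Other inducible transcription factors were higher with Fosl2. Of 27 tested AP-1 and immediate early genes, 19 were higher and 3 lower (against 15.6% and 18.6% of all genes), with a median log2 difference of 1.38. Fosl2, Nr4a1, Nr4a2, Nr4a3 and Dusp1 are on the cAMP list too, so the counts of these lists are not separate results. Atf3, a stress-induced partner of AP-1, was at 56.99, 92.1 and 41.1 TPM in lung and 2.21, 3.03 and 1.66 TPM in spleen, and Ier3 had a log2 difference of 3.59 (SE 0.50). Junb, the most abundant AP-1 subunit here, was at 1606, 1521 and 1700.5 TPM in lung and 403, 399.7 and 389.8 TPM in spleen, and Fos was at 472, 473 and 513 TPM in lung and 142, 123 and 137 TPM in spleen. Not all immediate early genes rose. Egr2 and Egr3, which T cells induce through the antigen receptor and calcineurin, were lower. Egr3 was at 1.30, 2.66 and 2.08 TPM in lung and 20.5, 17.9 and 17.3 TPM in spleen, a log2 difference of -2.72 (SE 0.26, adjusted p = 2.22e-04), Egr2 had a log2 difference of -1.35, and the third gene that was lower was Dusp2 (-0.61). Egr1 and Myc did not pass.

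Genes of the NF-kappaB pathway showed 14 of 18 higher and 0 lower by limma, also at an unadjusted p of 0.05, with a median of 0.86. The largest difference was that of Tnfaip3, the ubiquitin-editing enzyme A20 that NF-kappaB induces and that restrains it. It was at 1082, 1099 and 1082 TPM in lung and 92.8, 89.8 and 82.00 TPM in spleen, and the log2 difference was 3.61 (SE 0.06, adjusted p = 1.37e-07). The subunit Rel was at 103, 107 and 87.8 TPM in lung and 22.8, 24.3 and 21.8 TPM in spleen. The nuclear cofactor Nfkbiz and the survival factor Birc3 had log2 differences of 1.99 and 1.69. Of 11 tested glucocorticoid response genes, 9 were higher and 0 lower (1 lower at an unadjusted p of 0.05 or without lung replicate 1), with a median of 1.79. Per1 and Dusp1 of this list are on the cAMP list too, Cxcr4 on the chemokine receptor list and Il7r on the resting T cell and cytokine receptor lists. Sgk1, a kinase induced by corticosteroids and by salt, was at 148, 178 and 137 TPM in lung and 9.43, 8.62 and 8.79 TPM in spleen, and the receptor Nr3c1 itself was at 271, 231 and 262 TPM in lung and 43.4, 49.4 and 49.2 TPM in spleen.

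On TPM, stress genes moved in both directions. Of 16 heat shock and chaperone genes, 8 were higher and 5 lower. With libraries scaled to genes of the T cell receptor complex, 11 were higher and 0 lower, so the calls of lower genes depended on the scale. The inducible Hspa1a and Hspa1b, near-identical copies whose separate values are uncertain, were at 114, 118 and 138 TPM and 202, 206 and 187 TPM in lung and at 14.2, 9.94 and 11.9 TPM and 36.98, 38.6 and 41.9 TPM in spleen. Bag3 and Dnajb4 were higher by 1.83 and 1.18. The 5 lower ones were the constitutive Hspa8 and Hsp90ab1, the mitochondrial Hspd1 and Hspe1, and Chordc1, with log2 differences from -1.04 to -0.26. Of 15 tested genes of the unfolded protein and integrated stress responses, 7 were higher and 3 lower (9 and 1 under that scaling). Dnajb9 was at a mean of 59.8 TPM in lung and 11.3 TPM in spleen, and the endoplasmic reticulum chaperones Sdf2l1 (-1.39) and Pdia4 (-1.30) were lower. The call of Sdf2l1 was lost without spleen replicate 1 (adjusted p = 0.066), spleen replicate 3 (0.072) or lung replicate 1 (0.053). That of Herpud1 was lost in the same 3 cases (0.079, 0.107 and 0.058), which left 1 lower gene, and also without lung replicate 2 (0.073). Of 11 tested dual specificity phosphatases, which switch off MAP kinases, 6 were higher and 2 lower (1 lower without any 1 of 5 libraries, lung replicate 2 being the exception). Scaled to T cell receptor complex genes, 7 were higher and 0 lower. Dusp10 was at 333, 313 and 327 TPM in lung and 19.02, 21.2 and 14.6 TPM in spleen, and Dusp5 and Dusp4 had log2 differences of 3.04 and 2.94.

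The tissue Treg list held 22 genes, of which 18 were higher, 3 lower and 1 did not pass, with a median log2 difference of 1.67. Il1rl1, which encodes ST2, was at 290.2, 255 and 254 TPM in lung and 19.1, 18.99 and 14.1 TPM in spleen, a log2 difference of 3.87 (SE 0.14, adjusted p = 2.73e-06). Il18r1, which starts 137 bases away on the same strand, was higher too (1.96). Gzmb, the protease granzyme B, was at 155, 144 and 124 TPM in lung and 8.10, 3.59 and 6.61 TPM in spleen, and Dgat2, which like Dgat1 makes triglycerides, was at 82.7, 97.01 and 88.3 TPM in lung and 2.53, 4.27 and 4.74 TPM in spleen. In Il1rl1, Gzmb and Dgat2 the lowest lung library was many times the highest spleen library. The list of cytotoxic and natural killer cells, to which Gzmb also belongs, had 2 of 14 genes higher, Gzmb and Gzma (1 without spleen replicate 2), and 2 lower, Cd8a and Cd8b1. The 3 tissue Treg genes that were lower were Lag3, an inhibitory receptor, Penk, which encodes enkephalin precursors, and Tnfrsf8, which encodes CD30. Lag3 was at 3.32, 6.07 and 5.50 TPM in lung and 33.7, 29.03 and 27.4 TPM in spleen, and Penk at 29.1, 18.2 and 22.3 TPM in lung and 98.8, 115 and 96.8 TPM in spleen.

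Transcription factors of effector Treg cells showed 14 of 18 higher and 0 lower by limma, also at an unadjusted p of 0.05, with a median of 1.56. Rora was at 165, 152 and 138 TPM in lung and 11.3, 14.2 and 12.5 TPM in spleen, a log2 difference of 3.49 (SE 0.13, adjusted p = 3.04e-06). Bhlhe40 was at 436, 364 and 409.8 TPM in lung and 45.95, 37.4 and 38.1 TPM in spleen, Nfil3 at 146, 159 and 150.2 TPM in lung and 19.6, 20.8 and 14.8 TPM in spleen and Id2 at 336, 341 and 292 TPM in lung and 60.6, 51.3 and 48.6 TPM in spleen. The groups did not overlap for any of these 4 genes. Gata3 and Pparg, both named for tissue Treg cells in other organs, were higher by 1.82 and 2.47, with Pparg at only 10.99, 11.4 and 12.7 TPM in lung and 1.31, 2.12 and 0.69 TPM in spleen. Markers of alveolar macrophages were higher in the same lung libraries, and the part of such cells in the level of Pparg was not tested. Tbx21, Maf and Ikzf2, which encodes Helios, did not pass. Rora, Bhlhe40 and Nfil3 also belong to the clock list, in which 9 of 18 genes were higher and 2, Dbp and Tef, were lower (1 without spleen replicate 2 or 3). Hlf was at 14.4, 19.4 and 14.01 TPM in lung and 1.03, 1.95 and 0.46 TPM in spleen and Dbp at 13.8, 4.86 and 8.90 TPM in lung and 34.5, 32.1 and 32.1 TPM in spleen, so these related factors moved in opposite directions.

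The core Treg genes were split on TPM, with 8 of 18 higher and 6 lower (4 to 6 lower with 1 library left out) and a median of 0.05. The median became -0.03 when abundant RNA classes were removed. With libraries scaled to genes of the T cell receptor complex, 10 were higher and 2 lower, with a median of 0.60, so the split depended on the scale. Ctla4 was at 1554, 1460.4 and 1443 TPM in lung and 210.1, 187 and 205 TPM in spleen, the largest rise of the list, with a log2 difference of 2.88 (SE 0.06, adjusted p = 3.13e-07). Lrrc32, which encodes GARP and holds latent TGF-beta on the cell surface, was at 272, 245 and 287 TPM in lung and 43.2, 46.4 and 47.2 TPM in spleen. Izumo1r, the folate receptor 4 of Treg cells, went the other way, at 97.8, 128 and 96.9 TPM in lung and 694, 734 and 662 TPM in spleen, a log2 difference of -2.70 (SE 0.11, adjusted p = 4.26e-06). Gpr83 was at 7.72, 6.21 and 9.26 TPM in lung and 47.97, 42.7 and 46.8 TPM in spleen. The IL-2 receptor chains differed in direction, with Il2ra at 72.5, 83.9 and 72.3 TPM in lung and 132, 125 and 127 TPM in spleen and Il2rb at 423, 413 and 409.9 TPM in lung and 261, 281 and 286 TPM in spleen.

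On the IL-2 receptor and STAT5 list, which includes the receptor chains, 9 of 15 genes were higher and 3 lower (7 to 9 higher with 1 library left out). The call of Il2rg was lost without any 1 of the spleen libraries (adjusted p = 0.065 to 0.088, limma). That of Bcl2l1 was lost without lung replicate 1 or 2 or spleen replicate 1 or 3 (0.051 to 0.080). Stat5a was at 243, 224 and 224 TPM in lung and 51.03, 51.2 and 50.3 TPM in spleen and Stat5b at 252, 257 and 305 TPM in lung and 76.6, 79.97 and 78.5 TPM in spleen. The feedback inhibitor Socs3 was at 557, 592 and 626 TPM in lung and 103, 80.8 and 82.6 TPM in spleen, and the kinase Pim1 had a log2 difference of 1.99. The 3 genes that were lower were Il2ra, Jak3 and Bcl2. In the Bcl2 family, 5 of 15 tested genes were higher and 4 lower (4 to 5 and 3 to 5 with 1 library left out). The pro-death genes Bcl2l11 and Pmaip1 were among the higher. Bcl2l11, which encodes BIM, was at 181, 163 and 160.2 TPM in lung and 19.6, 18.7 and 16.7 TPM in spleen, while Bcl2, which opposes it, was at 27.5, 30.4 and 22.9 TPM in lung and 57.6, 53.6 and 57.6 TPM in spleen and the pro-death gene Bid had a log2 difference of -1.27.

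Other cytokine receptors were mostly higher, with 12 of 20 tested above spleen and 3 below. Ifngr1, the ligand-binding chain of the interferon-gamma receptor, was at 1732, 1756 and 1721 TPM in lung and 144, 137 and 155 TPM in spleen, a log2 difference of 3.57 (SE 0.06, adjusted p = 1.03e-07). Il18rap, of the IL-18 receptor, was at 82.9, 65.3 and 85.2 TPM in lung and 14.7, 13.3 and 8.02 TPM in spleen, and Csf2rb, the shared chain of the GM-CSF receptor, at 20.02, 24.1 and 22.4 TPM in lung and 2.59, 1.81 and 2.23 TPM in spleen. The part of macrophages and monocytes in the level of Csf2rb was not tested. The 3 receptor genes that were lower were Il6ra, Il12rb1 and Il27ra, with log2 differences of -1.07, -1.39 and -1.21. Receptors of the TNF family were more even, 6 of 16 higher and 4 lower, led by Tnfrsf9 (1.88), Tnfrsf8 (-1.87), Tnfrsf10b (1.70) and Cd40, a receptor of B cells and myeloid cells (-1.49). Among inhibitory and costimulatory receptors, 7 of 16 were higher and 5 lower. Icos was at 425, 431 and 409.96 TPM in lung and 77.02, 66.2 and 69.7 TPM in spleen, Havcr2, which encodes TIM-3, had a log2 difference of 2.72, and Cd160 was lower at 0.51, 1.33 and 1.84 TPM in lung and 16.5, 18.1 and 9.71 TPM in spleen.

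Secreted factors did not share a direction. Of 21 tested cytokines and repair factors, 7 were higher and 8 lower, and the median, 0.15, fell to -0.20 without lung replicate 2. With 1 library left out, 5 to 8 were higher and 6 to 7 lower. The calls of Il17a (higher) and Il12a (lower) were lost when any library but lung replicate 1 was left out. That of Lif (higher) held only without spleen replicate 1, and that of Csf1 (lower) only without lung replicate 3. Vegfa, the vascular growth factor, was at 6.40, 13.96 and 8.29 TPM in lung and 0.39, 0.72 and 0.18 TPM in spleen, and Il10 had a log2 difference of 2.03 (SE 0.25). Lta (lymphotoxin alpha) was at 4.90, 3.57 and 3.76 TPM in lung and 43.4, 47.2 and 60.9 TPM in spleen and Ltb, its membrane partner, at 281, 286 and 296 TPM in lung and 1130.4, 1064 and 1154 TPM in spleen, so both subunits of lymphotoxin were lower in all lung libraries. Their receptor Ltbr did not pass (adjusted p = 0.05). B cells also make lymphotoxin, 13 of 14 B cell markers were lower in the same libraries, and their part in the fall of Lta and Ltb was not tested. Il4 was listed at 0 in all lung libraries and had a mean of 4.58 TPM in spleen. Of 11 tested chemokine ligands, 7 were higher and 0 lower, also at an unadjusted p of 0.05, but 5 were higher and 1 lower without lung replicate 1. Cxcl2 led them, Cxcl3 had a mean of 9.29 TPM in lung and was listed at 0 in spleen, and Ccl3 and Ccl2 had log2 differences of 1.88 and 2.20. Macrophage and monocyte markers were higher in the same lung libraries, and the part of such cells in these chemokines was not tested.

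Trafficking genes of both tissue-resident and circulating T cells were higher in lung. Of 16 tested genes of residency and tissue exit, 12 were higher and 1 lower, with a median of 0.94. Rgs2, which dampens G protein signals, was at 1068, 865 and 853 TPM in lung and 54.6, 50.2 and 36.7 TPM in spleen, a log2 difference of 4.28 (SE 0.16, adjusted p = 2.84e-06). The residency genes Cxcr6, Itgae (CD103) and Cd69 were higher by 1.68, 1.10 and 0.77. Some genes of lymph node entry and exit were higher in lung as well. Ccr7, the receptor that guides T cells into lymph nodes, was at 565, 581 and 578 TPM in lung and 135, 144 and 127 TPM in spleen, and S1pr1, the receptor for leaving tissue into blood or lymph, was at 525, 492 and 487 TPM in lung and 161, 171 and 161 TPM in spleen. The gene that was lower was P2rx7, the receptor for extracellular ATP, at 27.2, 25.97 and 57.6 TPM in lung and 102, 91.1 and 95.2 TPM in spleen.

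Resting T cell genes went the same way in part, 9 of 18 higher and 3 lower with a median of 0.48. Il7r was at 489.5, 456 and 433 TPM in lung and 74.5, 72.9 and 80.6 TPM in spleen, and the chromatin organizer Satb1 at 457, 384 and 417 TPM in lung and 93.2, 93.3 and 89.1 TPM in spleen. Tcf7, which encodes the TCF-1 of naive and memory T cells, was lower, at 142, 161 and 154 TPM in lung and 354, 345 and 341 TPM in spleen, and the other 2 lower genes were Bcl2 and Als2cl. Of 16 tested chemokine receptors, 9 were higher and 1 lower. Ccr2 had means of 154 ± 11.8 TPM in lung and 22.1 ± 2.34 TPM in spleen (SD, n = 3), and Cxcr4 was at 412, 429 and 469 TPM in lung and 90.3, 98.03 and 84.1 TPM in spleen. The receptor that was lower was Cxcr5, which guides cells to B cell follicles, at 14.7, 7.10 and 11.6 TPM in lung and 52.5, 74.8 and 71.9 TPM in spleen, a log2 difference of -2.51 (SE 0.27, adjusted p = 3.82e-04). B cells carry Cxcr5 too, and their part in its fall was not tested. Among 14 tested integrins, 5 were higher and 4 lower (3 lower when any library but lung replicate 1 was left out). Itgav and Itgb3, which pair into a receptor for vitronectin, were higher by 2.27 and 1.84, and Itgal and Itgb2, which pair into LFA-1, were lower by 0.96 and 0.86 on the log2 scale.

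**Figure D5:**
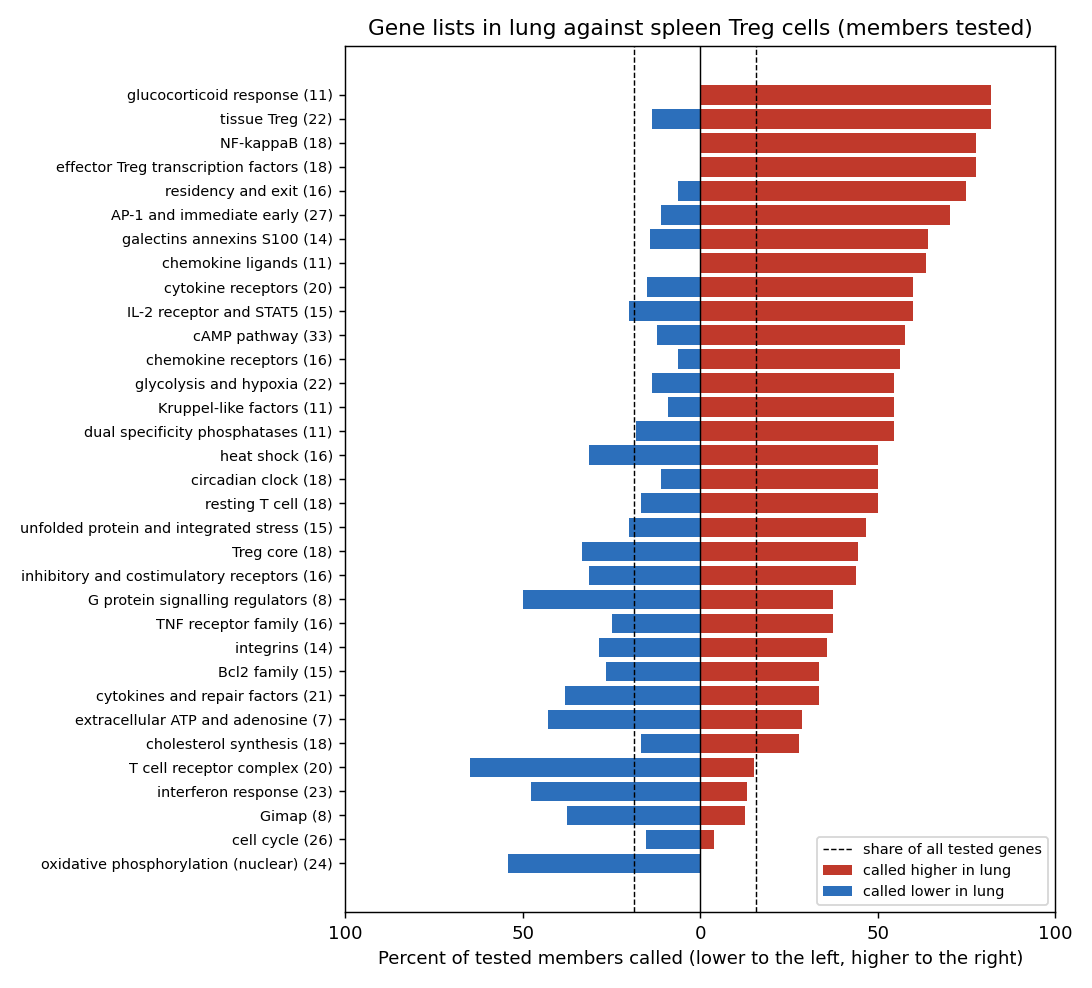
Share of the tested members of each gene list (number in brackets) called higher (red, to the right) or lower (blue, to the left) in lung, with dashed lines at the 15.6% and 18.6% of all tested genes. Glucocorticoid response, tissue Treg, NF-kappaB and effector transcription factor lists lie at the top, and T cell receptor complex, interferon response, Gimap, cell cycle and nuclear oxidative phosphorylation lists at the bottom.

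Most genes of the antigen receptor machinery were lower. Of 20 genes of the T cell receptor complex and its proximal signalling, 13 were lower and 3 higher, with a median of -0.61 against -0.12 for all genes. When the libraries were scaled to these same genes, the counts became 5 lower and 6 higher, since that scaling centres the list by its construction and adds 0.56 to the log2 difference of any well-expressed gene. The kinase Lck was at 286, 301 and 313 TPM in lung and 863, 956 and 920.3 TPM in spleen and the adaptor Lat at 225, 231 and 214 TPM in lung and 803, 739.7 and 779 TPM in spleen, with log2 differences of -1.60 (SE 0.06) and -1.79 (SE 0.06). Vav1 had a log2 difference of -1.53. Cd2 and Trat1 were among the 3 higher genes. The small falls of Cd3e (-0.30) and of the lymphocyte GTPase Gimap3 (-0.25) are within that shift, so their sign depends on the scale (0.26 and 0.31 under T cell gene scaling).

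Of 23 tested interferon response genes, 11 were lower (18.6% of all genes were) and 3 higher, with a median of -0.57, which became -0.02 under T cell gene scaling. Usp18 was at 5.39, 4.45 and 4.38 TPM in lung and 27.2, 29.6 and 19.9 TPM in spleen, Isg20 at 23.4, 26.9 and 14.6 TPM in lung and 58.8, 87.6 and 78.9 TPM in spleen and Ifit3 at 8.46, 7.05 and 11.6 TPM in lung and 24.8, 23.4 and 23.4 TPM in spleen. The 3 higher genes were Irf7, Irf1 and Gbp3, the last by 0.81. Of 26 cell cycle genes, 21 did not pass, 4 were lower and 1, Pcna, was higher. Mki67, the standard mark of cycling cells, was at 11.1, 11.7 and 17.5 TPM in lung and 13.8, 13.3 and 13.2 TPM in spleen. Plk1 and Tpx2, both of mitosis, were lower by 1.99 and 1.51 on the log2 scale, from low levels, and 2 genes instead of 4 were lower when any 1 of the spleen libraries was left out. The call of Tpx2 did not hold without spleen replicate 1 (adjusted p = 0.09), 2 (0.055) or 3 (0.062). The median of the list, -0.16, became 0.37 under T cell gene scaling, again within the shift.

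Metabolic genes showed glycolysis and hypoxia genes above spleen, 12 of 22 higher and 3 lower. Hif1a, the hypoxia-inducible transcription factor, was at 469.9, 463 and 465 TPM in lung and 91.9, 86.7 and 93.4 TPM in spleen, a log2 difference of 2.35 (SE 0.06, adjusted p = 7.78e-07). Egln3, an oxygen sensor that HIF induces, was at 32.9, 26.4 and 26.2 TPM in lung and 3.13, 3.38 and 3.16 TPM in spleen. The hexokinases switched, with Hk2 higher (2.12) and Hk1 lower (-1.12). Ldha and Gapdh had log2 differences of 0.84 and 0.66. Of 18 cholesterol synthesis genes, 5 were higher and 3 lower, and the largest difference was that of mevalonate kinase, Mvk, at 126, 139 and 114 TPM in lung and 14.8, 12.7 and 11.4 TPM in spleen, while Mvd, Fdps and Fdft1, which act after it, were lower. Those 3 calls were sensitive to the replicates, since 1 gene was lower without spleen replicate 1 and 0 without spleen replicate 2 or 3. Nuclear genes of oxidative phosphorylation had 0 of 24 higher and 13 lower, with a median of -0.38, while 9 of the 13 mitochondrially encoded mRNAs were higher and 0 lower, with a median of 0.70. Both counts of 0 held at an unadjusted p of 0.05, and 1 mitochondrial mRNA was lower without lung replicate 2. The first of these signs depended on the scale, since under T cell gene scaling 5 nuclear genes were higher, 1 was lower and the median was 0.18. Ribosomal protein genes showed the same dependence, with 70 of 87 tested lower and 1 higher (2 without lung replicate 3) on TPM and 7 lower and 47 higher under T cell gene scaling.

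Smaller families were mixed. Of 8 regulators of G protein signalling, 3 were higher and 4 lower (2 lower without spleen replicate 3). Rgs2 led the first, and among the second Rgs3 and Rgs14 had log2 differences of -1.61 and -1.66. Of 11 tested Kruppel-like factors, 6 were higher and 1, Klf16, was lower (0 without spleen replicate 2, spleen replicate 3 or lung replicate 2), with Klf4 at 29.5, 19.1 and 27.5 TPM in lung and 1.89, 1.66 and 1.24 TPM in spleen and Klf6 at 295, 262 and 262 TPM in lung and 65.2, 60.9 and 57.8 TPM in spleen. Klf2, which keeps S1pr1 expressed in circulating T cells, had a log2 difference of 0.75. Of 14 galectin, annexin and S100 genes, 9 were higher and 2 lower. Lgals3 was at 128, 143 and 213 TPM in lung and 22.2, 25.96 and 11.6 TPM in spleen, and S100a4 at 914, 1052 and 943 TPM in lung and 367, 325 and 297 TPM in spleen. Macrophages also make galectin 3, and the part of their markers in its level was not tested. Of 7 tested genes of extracellular ATP and adenosine, 2 were higher, Adora2a and the adenosine-producing Nt5e (0.71), and 3 were lower, P2rx7, Ada and Slc29a1. The call of Ada was lost when any library but lung replicate 2 was left out, at an adjusted p of up to 0.12. Of 8 Gimap genes, 1 was higher (2 without lung replicate 3) and 3 lower, a balance that became 6 higher and 1 lower under T cell gene scaling.

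The largest falls of all tested genes were those of Jchain (-6.18) and the immunoglobulin gene Iglv2 (-6.07). In the ranking without immunoglobulin and the other classes named above, the falls were smaller. Dtx1, a ubiquitin ligase that acts with Notch, was at 15.1, 18.8 and 17.2 TPM in lung and 149, 177 and 166 TPM in spleen, a log2 difference of -3.19 (SE 0.13, adjusted p = 3.54e-06). Zbtb7b, which encodes ThPOK, the factor that fixes the CD4 lineage, was at 10.3, 11.2 and 12.2 TPM in lung and 97.8, 86.98 and 111 TPM in spleen, the lowest mean of the 6 sites, where the others ranged from 91.9 TPM in liver to 134 TPM in lymph node. The predicted gene Gm15417, which overlaps Zbtb7b on the opposite strand, was lower as well. Cst7, a cystatin that inhibits lysosomal proteases, was at 3.88, 4.52 and 10.5 TPM in lung and 97.6, 106 and 109.8 TPM in spleen. In all 3 genes the lung libraries were far below the lowest spleen library. Slc7a10, an amino acid transporter, was at 0.65, 1.75 and 0 TPM in lung and 35.1, 18.3 and 31.3 TPM in spleen, and its exons overlap those of Lrp3 on the opposite strand, which was at 1.16, 0 and 0 TPM in lung and 11.8, 14.2 and 9.50 TPM in spleen. Their reads cannot be told apart if strand was not used in counting, which the sources used here do not give.

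The other falls also need their neighbours beside them. Insl3 was listed at 0 in all lung libraries and at 14.2, 2.83 and 22.8 TPM in spleen, and it shares exon sequence with Jak3, which was lower too, at means of 58.6 TPM in lung and 106 TPM in spleen. Rln3 lay 340 bases from Il27ra on the same strand, and was at 0, 10.1 and 6.49 TPM in lung and 51.04, 50.1 and 55.5 TPM in spleen. Its adjusted p was 0.012 and became 0.051 without spleen replicate 1 and 0.053 without spleen replicate 3. Rdm1, a DNA repair protein, was at 1.0, 16.9 and 1.34 TPM in lung and 53.6, 39.4 and 41.6 TPM in spleen, with lung replicate 2 above the other lung libraries. Its adjusted p of 0.013 became 0.061 without spleen replicate 1, 0.052 without spleen replicate 3 and 0.053 without lung replicate 3. The predicted gene Gm23849, which lies within Rdm1, was listed at 0 in lung and had a mean of 35.9 TPM in spleen. Serpinc1, which overlaps Zbtb37, was at 17.7, 6.58 and 5.94 TPM in spleen and at most 0.16 TPM in lung. Il4i1, an enzyme that breaks down aromatic amino acids, was at 0.75, 0 and 0.63 TPM in lung and 11.4, 9.77 and 16.8 TPM in spleen, and shares exon sequence with Nup62, Atf5 and Tbc1d17, none of which passed. Car1, an erythroid carbonic anhydrase, was at 1.90, 0.48 and 0.25 TPM in lung and 15.3, 16.5 and 13.5 TPM in spleen but at a mean of 136 TPM in bone marrow, and 3 of 8 erythroid markers were lower in lung. For 9 of the 12 genes no site had a lower mean than the lung, with Insl3 listed at 0 in liver too, and for 8 the spleen had the highest. Choosing the 12 for their fall from spleen to lung favours both ranks.

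Many immunoglobulin transcripts were lower. Of 163 immunoglobulin genes tested, 93 were lower, each by at least 1 log2 unit, and the other 70 did not pass, with summed levels of 613 to 680.2 TPM in lung and 5973 to 6107 TPM in spleen. Ighm, the heavy chain of IgM, was at 181, 187 and 199 TPM in lung and 1265, 1308 and 1290.4 TPM in spleen, and Igkc at 175, 177 and 191 TPM in lung and 1888, 1940.04 and 1786 TPM in spleen. The B cell and plasma cell markers were lower in the same libraries, with sums given above, and their part in this fall was not tested. Of 121 variable segments of the T cell receptor, 18 (14.9%, against 18.6% of all genes) were lower and 1 higher (0 to 2 with 1 library left out), with 11, 11 and 7 lower without spleen replicate 1, 2 or 3 and 9 without lung replicate 2.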

How the data were processed

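The 6 libraries were RNA-seq of sorted CD4+Foxp3+ cells. The authors deposited 1 table per library of TPM values for 55487 Ensembl gene IDs. STAR, RSEM and mm10 are named in the submitters' processing notes, and versions, annotation and strand setting are not given in the sources used here. Symbols and coordinates came from GENCODE M21 (55141 IDs matched), and promoter sequences from RefSeq. Groups came from the tissue label. Genes averaging 1 TPM or more in lung or spleen were compared on log2(TPM + 1) with limma 3.58.1 in R 4.3.3 (eBayes with trend and robust settings, no covariate), with Benjamini-Hochberg adjustment over all of them and calls at 0.05. Differences are on the log2(TPM + 1) scale, which understates changes of low genes. Depth was read from steps between low TPM values of 12062 single-transcript genes, since TPM keeps none. The script was tested on simulated data. The 12 genes per direction with the largest difference were named among called genes whose higher group averaged 10 TPM or more and whose groups did not overlap, leaving out predicted genes, antigen receptor, immunoglobulin and small RNA genes and markers of other cells. Up to 4 called genes per list were named, and further genes were chosen after their values were seen. Some members of the lists are counted but not reported here by name or drawn. Members and lists were chosen with earlier results of these data known. Alternatives covered pseudocount, filter, scaling, model and each library left out. Same-numbered libraries did not deviate together (correlations of -0.035 to 0.001, against -0.031 to 0.032 for other pairs). With 3 libraries per group this cannot tell whether same-numbered libraries shared mice or a sort, and the main fit used no pairing.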

Additional observations from a re-analysis of the deposited data

How the results depend on the processing

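The counts of 2278 higher and 2712 lower genes stayed within 1.5 times under other pseudocounts, filters, TMM and quantile scaling, removal of abundant RNA classes, a fit of all 18 libraries, library weights and plain variance moderation. Scaling to T cell genes gave 4619 higher and 1026 lower genes, with all 1026 among the 2712. A minimum of 1 log2 unit left 1323 and 1490. With 1 library left out, the counts ranged from 1744 to 2192 higher and from 1783 to 2548 lower, the lowest lower count without spleen replicate 3. The fit with the replicate number as a block gave 1974 higher and 2347 lower genes. Of 141 genes followed, 126 kept direction and side of the threshold under every alternative run, among them 22 of the 24 ranked genes, the exceptions being Rln3 and Rdm1. Under T cell gene scaling Gimap3 (0.31), Cd3e (0.26) and Cd4 (0.23) changed sign, since that scaling adds 0.56 to the log2 difference of well-expressed genes by its construction. Depth limits what can be said of genes near 0 in lung, where 1 read on 1 kb was worth 0.233 TPM on average against 0.157 in spleen, and no counts were used.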
